A study of Caenorhabditis elegans with 2 samples.

Results

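Genes of axon guidance and synapse formation in the nematode Caenorhabditis elegans were examined for peaks of chromatin precipitated with the transcription factor UNC-3. They are a named list of 40 genes, out of 19973 protein-coding genes on the nuclear chromosomes, and the rule that lists them uses gene function and no measured value, although earlier results of these data were known when the list was made. Each gene was given a window from 2000 bp upstream of its annotated 5′ end to its 3′ end in Ensembl's annotation of the assembly WBcel235. The windows ranged from 4.44 to 38.7 kb. The genes were read in 9 classes: netrin (3 genes), slit (2), ephrin (2), semaphorin and plexin (5), Wnt (7), adhesion and synapse (9), receptor phosphatase (2), intracellular effector (8), and matrix and other transmembrane (2).

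The study is a ChIP-seq experiment of the ENCODE project with 1 group of 2 biological replicates. Both came from strain RW12259, whose allele st12259 carries unc-3::TY1::EGFP::3xFLAG made by CRISPR insertion. The labels place the allele on II, whereas the annotation places the gene unc-3 on X. Whole late embryos, obtained by egg bleaching and aged 2.5 hours, were used, the chromatin was sonicated to 200 to 800 bp, and the tag was precipitated with an antibody against GFP, although the antibody field names unc-3. The files hold peaks and no expression values, so the labelled stage could not be checked against marker genes, and the peaks come from all cells of the embryo together. A control library was not used here, so a peak alone does not show binding by UNC-3. The depth of the libraries is unknown.

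Growing axons steer by secreted and membrane-bound cues. UNC-6/netrin, SLT-1/slit, ephrins, semaphorins and Wnts act on receptors at the growth cone, and the receptors act on the cytoskeleton through intracellular effectors. Adhesion proteins of the immunoglobulin, neurexin and neuroligin families then hold axons in place and match the partners of a synapse. UNC-3 is the worm's COE (Collier/Olf/EBF) factor and is known for setting the identity of cholinergic motor neurons, whose axons use several of these cues. Members of the COE family bind a palindromic motif, searched here on both strands as TCCCNNGGGA (the exact pattern). A relaxed COE pattern allowed any pyrimidine first and any purine last, so every exact site is also a relaxed site.

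Peaks near 4 of the genes held such a site within 100 bp of the summit, and these sites are shown because they are the only ones at ranked summits in the 40 windows. Each is printed with 30 bases on either side, 5′ to 3′ on the strand of its gene, from the RefSeq copy of WBcel235 (ce11), with the site in capitals. The vab-1 stretch is chrII:4579570-4579639 (plus strand), that of nrx-1 chrV:10840418-10840487 (plus), that of nlg-1 chrX:13632481-13632550 (minus) and that of unc-51 chrV:20005977-20006046 (minus). Only the nrx-1 site matches the exact pattern. The vab-1 and nrx-1 sites lie in introns and the nlg-1 and unc-51 sites lie upstream of the gene.
vab-1: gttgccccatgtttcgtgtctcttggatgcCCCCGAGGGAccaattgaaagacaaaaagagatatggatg
nrx-1: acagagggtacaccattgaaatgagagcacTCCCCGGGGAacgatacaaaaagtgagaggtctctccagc
nlg-1: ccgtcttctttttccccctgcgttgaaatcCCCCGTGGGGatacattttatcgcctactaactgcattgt
unc-51: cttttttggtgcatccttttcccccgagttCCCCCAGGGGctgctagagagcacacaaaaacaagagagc

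The peak upstream of unc-115 is shown for another reason, since its summit lies inside a tRNA gene. The whole peak is chrX:10145034-10145297 (plus strand), and the capitals mark the 73 bases of the tRNA gene WBGene00014318.
unc-115: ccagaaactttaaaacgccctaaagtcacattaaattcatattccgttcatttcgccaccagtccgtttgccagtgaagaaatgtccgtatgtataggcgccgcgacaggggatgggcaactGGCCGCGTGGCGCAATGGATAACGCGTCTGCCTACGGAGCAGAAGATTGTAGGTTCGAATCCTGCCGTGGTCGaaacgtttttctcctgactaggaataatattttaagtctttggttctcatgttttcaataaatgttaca

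A short and a long list were read for both replicates together. The main list (the authors' conservative list) holds 631 peaks that passed an irreproducible discovery rate (IDR) of 0.01, and the ranked list it came from holds 30297 peaks, strong and weak, of which 779 passed that limit. IDR estimates the share of peaks at that rank or better that would not repeat between replicates. Each replicate also has a ranked list of its own, with 33914 peaks in replicate 1 and 34079 in replicate 2. Peak strength is the deposited signal value, whose definition none of the sources used here gives. Its median was 81.5 in the main list, 26.8 in the ranked list, and 16.01 and 14.09 in the ranked lists of replicates 1 and 2. Values for both replicates and for a single replicate are therefore on different scales. Rank 1 is the highest signal of a list.

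Of the 40 genes, 5 (12.5%) had a main summit in the window: vab-1, mab-20, sax-7, unc-73 and unc-115. Over all protein-coding genes the share was 3.59%, and over those with a window of at least 10000 bp it was 8.34%. Of the 23 members with windows that long, 3 (13.0%) had a main summit. Long windows catch more summits, and the median window was 10.7 kb in the 40 genes against 4.03 kb over all genes. Per Mb of window there were 8.57 main summits in the 40 genes, 6.22 over all genes and 5.79 over genes with long windows. These are counts over 5 genes without a test. In the ranked list, 39 of the 40 genes had a summit, against 64.6% of all genes, so presence in that list says little about a gene.

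**Figure D1:**
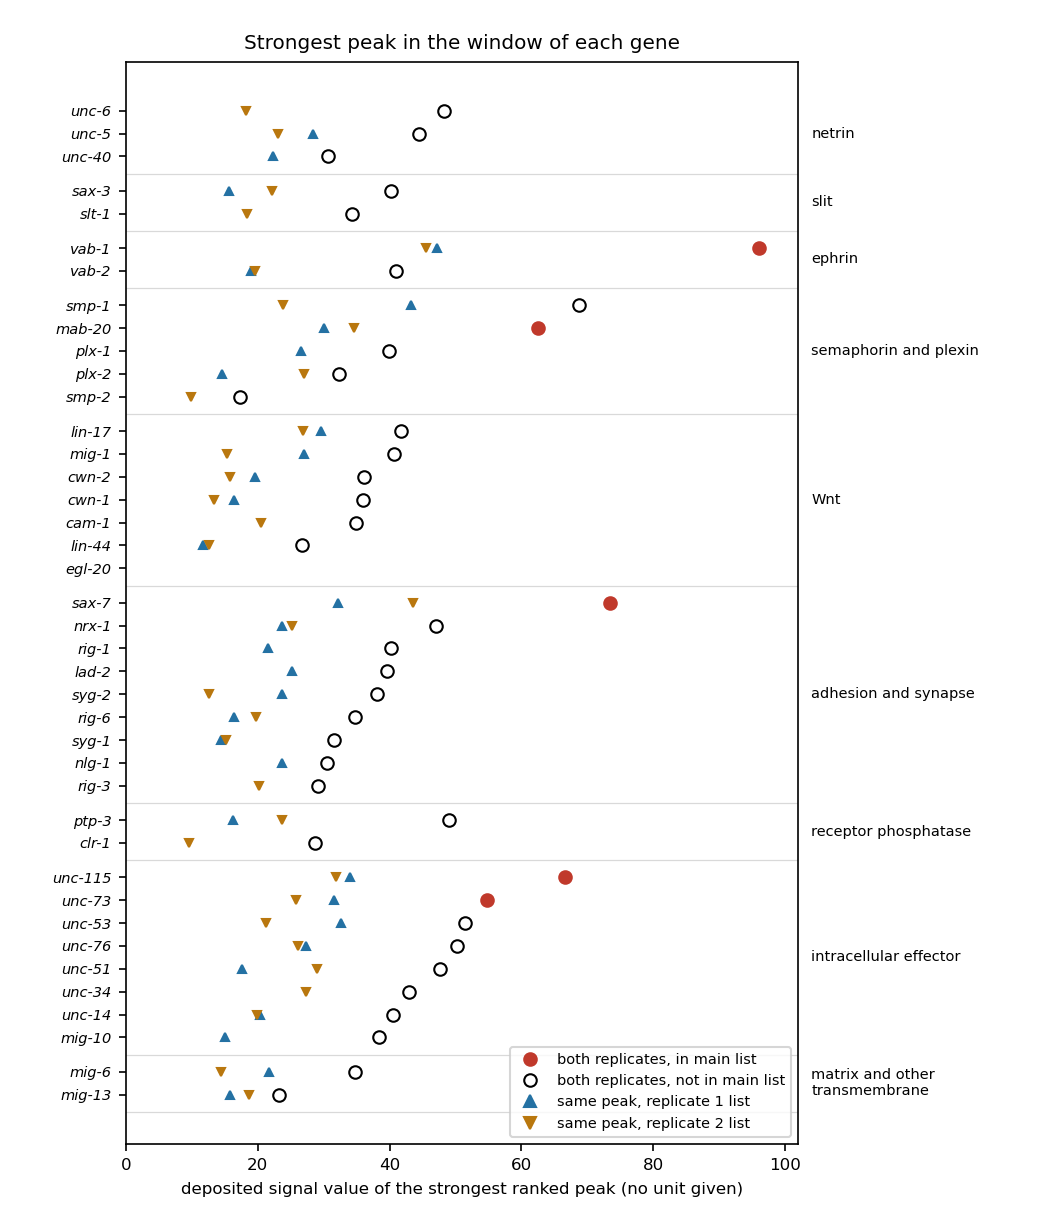
Signal value (no unit given) of the strongest ranked peak in the window of each of the 40 genes, by class. Circles give the list for both replicates (filled where the peak is in the main list), and triangles give the same peak in the ranked list of replicate 1 or 2. vab-1 stands at 96.0, and the median over the genes is 40.2.

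In the netrin class, UNC-6 is the secreted cue and UNC-40 and UNC-5 are its receptors, known for attraction (UNC-40) and repulsion (UNC-5). The strongest peak of the class was at unc-6, 175 bp upstream of its 5′ end, with a signal of 48.2 at rank 1469 for both replicates. The ranked list of replicate 1 had no peak there, and replicate 2 gave 18.2. The IDR of this unc-6 peak was 0.272. The unc-5 peak of 44.4 lay in an intron, 21596 bp downstream of the 5′ end, with 28.3 in replicate 1, 23.0 in replicate 2 and an IDR of 0.0324. unc-40 reached 30.7, with 22.3 in replicate 1 and no peak there in replicate 2. None of the 3 genes had a main summit.

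The slit class holds slt-1, the secreted ligand, and sax-3, its Robo receptor. The strongest sax-3 peak, in an intron, gave 40.2 at rank 3188, with 15.6 in replicate 1 and 22.1 in replicate 2. The strongest slt-1 peak lay 368 bp upstream and gave 34.3, with no peak there in replicate 1 and 18.3 in replicate 2. Both genes were without a main summit, and their IDR values were 0.756 and 0.817. A weaker slt-1 peak, of 20.9, lay 85 bp from a tRNA gene in an intron of slt-1.

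The ephrin class held the strongest peak of the 40 genes. VAB-1 is the worm's Eph receptor tyrosine kinase and VAB-2 is an ephrin that binds it. The vab-1 peak (chrII:4579477-4579740) gave 96.0 for both replicates, 47.2 in replicate 1 and 45.5 in replicate 2. Its rank was 339 of the ranked and 227 of the main peaks, 394 for replicate 1 and 405 for replicate 2, with an IDR of 0.000252. The replicates gave nearly the same value and rank here. The summit lay in an intron of vab-1 (chrII:4572000-4590970, plus strand), 7609 bp downstream of the 5′ end and no nearer to any other vab-1 transcript start. It was the only peak of the 40 genes found in every thresholded list, at rank 259 in that of replicate 1 and 270 in that of replicate 2. The relaxed COE site printed above lay 4.5 bp from the summit, and 0.5 and 15.5 bp from the summits of replicates 1 and 2. The window held 17 other ranked summits, the next strongest at 43.9, and 15 of its 18 summits were intronic. vab-2, by contrast, reached 40.9 at a site 1179 bp upstream (19.0 and 19.7 in the replicates, IDR 0.364).

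**Figure D2:**
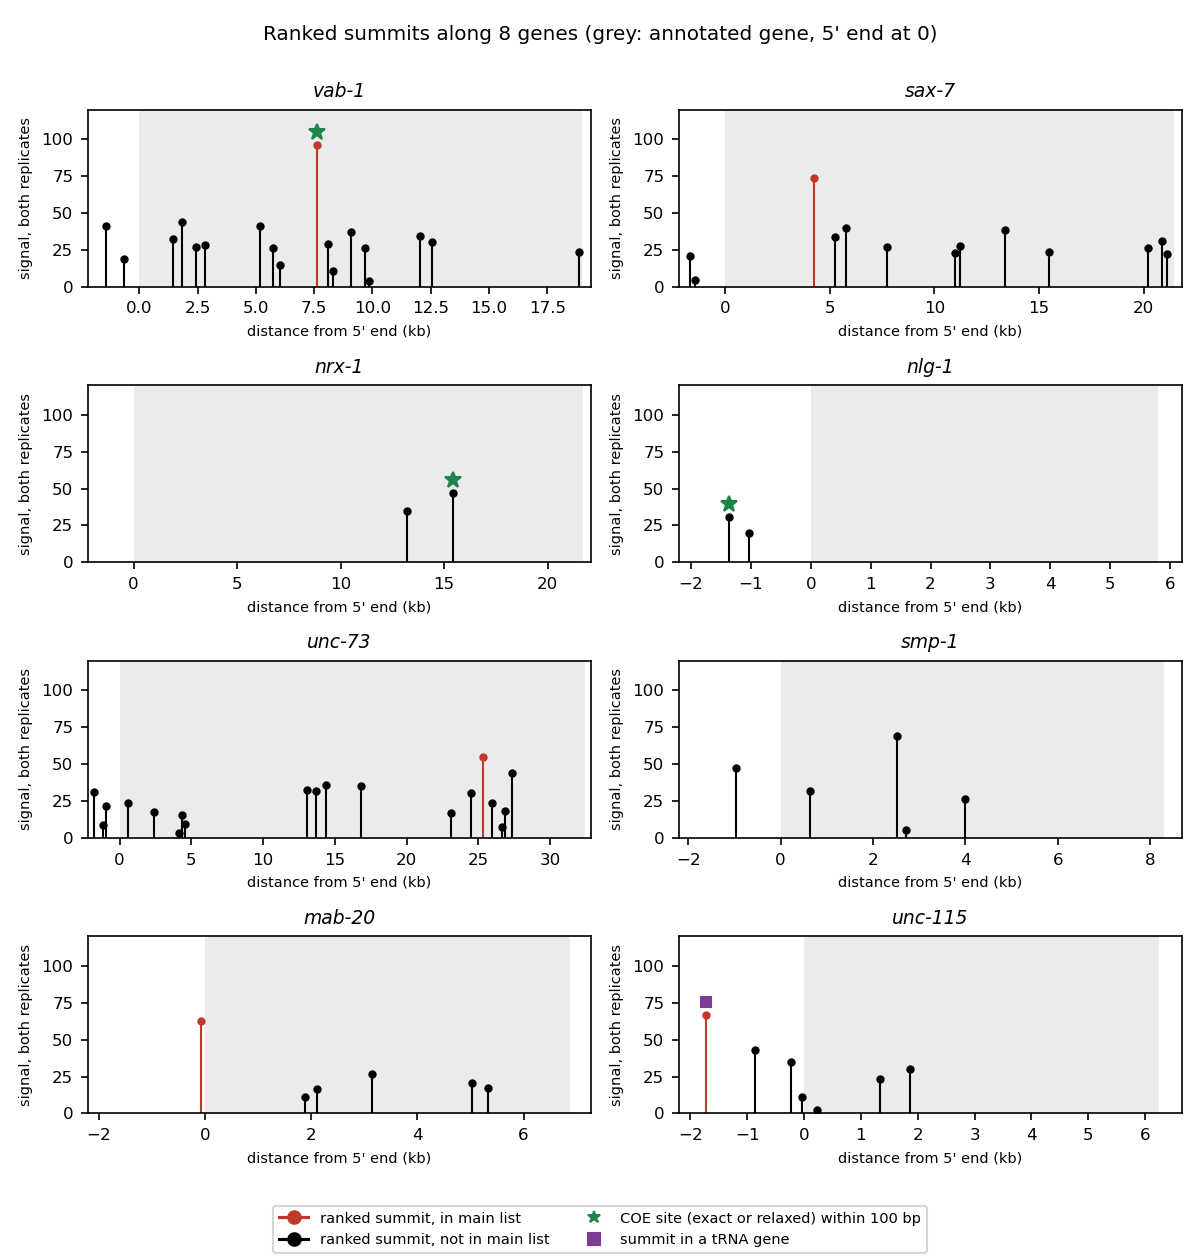
Ranked summits along 8 genes, by distance from the 5′ end in kb (x axis) and signal value for both replicates, with no unit given (y axis). Grey marks the annotated gene, red lines main summits, stars a COE site within 100 bp and the square a summit inside a tRNA gene. The vab-1 summit stands at 96.0 above 17 weaker ones, whereas nrx-1 has 2 summits in the ranked list for both replicates, both intronic.

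Among semaphorins and plexins, SMP-1 and SMP-2 are transmembrane semaphorins that act through PLX-1, and MAB-20 is a secreted semaphorin that acts through PLX-2. The mab-20 peak, on chromosome I at 1651395 to 1651658, gave 62.5 for both replicates, 30.1 in replicate 1 and 34.6 in replicate 2. It ranked 739 of all ranked peaks and 528 in the main list, with an IDR of 0.00388. Its summit lay 70 bp upstream of the mab-20 5′ end (gene at 1644588 to 1651457, minus strand), the only main summit here within 500 bp of the 5′ end of its gene. The thresholded lists of the single replicates did not hold it, nor did the other thresholded list for both.

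The strongest semaphorin peak by signal was not in the main list. It lay in an intron of smp-1, 2513 bp downstream of the 5′ end, and gave 68.8 for both replicates, 43.2 in replicate 1 and 23.8 in replicate 2. Replicate 1 was thus much higher than replicate 2, and the IDR of 0.0115 lies just outside the limit of 0.01. The peak was nevertheless in the other thresholded list for both replicates, with a second, overlapping peak of 5.15, and in the thresholded list of replicate 1. plx-1 reached 39.9 and plx-2 32.3, both in coding exons, and smp-2 reached 17.3, the lowest strongest peak among the 39 members with a ranked summit.

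None of the 7 Wnt genes had a main summit. LIN-44, EGL-20, CWN-1 and CWN-2 are secreted Wnts, LIN-17 and MIG-1 are Frizzled receptors, and CAM-1 is a Ror receptor tyrosine kinase. The lin-17 peak was nearest to the limit, with 41.8 for both replicates, 29.6 in replicate 1, 26.9 in replicate 2 and an IDR of 0.0101. Its replicates were closer to each other than those of smp-1, and its signal was lower. It lay in an intron, 3801 bp downstream of the gene's 5′ end and 731 bp from the nearest lin-17 transcript start. mig-1 reached 40.7 in an intron (27.0 and 15.4), cwn-2 36.1, cwn-1 36.0, cam-1 34.9 and lin-44 26.7. egl-20 was the only one of the 40 genes with no summit in the ranked list for both replicates, although each replicate's ranked list had 1 there, of 10.8 in replicate 1 and 13.8 in replicate 2. cwn-1 held 7 ranked summits in a window of 4.62 kb.

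Among the 9 adhesion and synapse genes, only sax-7 had a main summit. SAX-7 is the worm's L1CAM, which keeps neurons and axons in position, and LAD-2 is a second L1-type protein. The sax-7 peak (chrIV:8066795-8067058) gave 73.4 for both replicates, 32.2 in replicate 1 and 43.6 in replicate 2, with ranks of 537 in the ranked and 393 in the main list and an IDR of 0.00165. It was also in the thresholded list of replicate 2 and not in that of replicate 1. The summit lay in an untranslated region, 4268 bp downstream of the 5′ end of the gene (chrIV:8062659-8084087, plus strand) but 62 bp from the 5′ end of a shorter sax-7 transcript. lad-2 reached 39.6, in an intron, with 25.3 in replicate 1 and no peak there in replicate 2.

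Neurexin and neuroligin, the partners across the synaptic cleft encoded by nrx-1 and nlg-1, both had a COE site at their strongest peak, and neither peak was in a thresholded list. The nrx-1 peak (chrV:10840317-10840580) gave 47.0 for both replicates, 23.8 in replicate 1 and 25.2 in replicate 2, with an IDR of 0.0634. The exact site lay 3.5 bp from the summit for both replicates, 44.5 bp from that of replicate 1 and 3.5 bp from that of replicate 2. The peak was intronic, 15438 bp downstream of the 5′ end of the gene and 1408 bp from the nearest 5′ end of an nrx-1 transcript. It ranked 1639 in the ranked list, 3572 in replicate 1 and 1641 in replicate 2. In the ranked list for both replicates nrx-1 had only 1 other summit in 23.7 kb. The replicates' own ranked lists held more in this window, 7 in replicate 1 and 9 in replicate 2.

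The nlg-1 peak lay 1358 bp upstream, within the annotated non-coding RNA genes C40C9.7 and C40C9.11. It gave 30.4 for both replicates at rank 10436, 23.7 in replicate 1 and no peak there in replicate 2, with an IDR of 0.822. Its relaxed site was 14.5 bp from the summit. An exact site in an nlg-1 intron, 418 bp downstream of the 5′ end, had its nearest ranked summit 1441.5 bp away. The exact match in nlg-1 thus had no ranked summit within 100 bp. The looser match upstream had such a summit for both replicates together and in replicate 1, but not in replicate 2. The nearest replicate 2 summit, of 22.2, lay 615.5 bp from the looser match.

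The other adhesion genes had strongest peaks between 29.1 and 40.2. SYG-1 and SYG-2 are immunoglobulin proteins that choose the site of synapses, and they reached 31.5 and 38.1. The neuronal immunoglobulin genes rig-1, rig-3 and rig-6 (rig-6 encodes a contactin) reached 40.2, 29.1 and 34.8. In the ranked list for both replicates, the class as a whole had 2.83 summits per 10 kb of window, the lowest of the 9 classes. In neither replicate's own ranked list was it the lowest. The ephrin class had 8.04 in the list for both, the highest, from 2 genes.

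Of the receptor phosphatases, PTP-3 is the worm's LAR-type phosphatase, which acts in axon guidance and at the presynaptic side, and CLR-1 counteracts fibroblast growth factor signalling. The strongest ptp-3 peak, in an intron, gave 49.1 for both replicates, 16.2 in replicate 1 and 23.6 in replicate 2, with an IDR of 0.747. ptp-3 had the longest window, 38.7 kb, and the most ranked summits, 28, of which 23 were intronic and none was in the main list. clr-1 reached 28.6, with no peak there in replicate 1 and 9.60 in replicate 2.

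The intracellular effectors held 2 of the 5 genes with a main summit and had the highest median strongest signal of the classes with more than 2 genes, 48.9. UNC-115 is an actin-binding protein of the abLIM family and UNC-73 is a Trio-type protein needed for axon guidance. The unc-115 peak printed above gave 66.6 for both replicates, 33.9 in replicate 1 and 31.9 in replicate 2, at ranks 641 (ranked list) and 471 (main list), with an IDR of 0.00232. Its summit lay 1726 bp upstream of unc-115, inside the tRNA gene and the non-coding RNA gene F09B9.7. Of 20 words of 36 bases taken along this peak, 6 occurred elsewhere in the genome, whereas the peaks of the other genes given here with their full values had 0 of 20.

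The unc-73 peak lay on chromosome I at 4006293 to 4006556 and gave 54.7 for both replicates, 31.6 in replicate 1 and 25.8 in replicate 2. Its ranks were 999 in the ranked and 596 in the main list, and its IDR of 0.00936 was just inside the limit. The summit was intronic, 25314 bp downstream of the 5′ end and 1911 bp from the nearest 5′ end of an unc-73 transcript. The nearest 5′ end of any gene was that of F55C7.2, 990 bp away. The assignment to unc-73 therefore rests on the window rule.

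The other effectors had no main summit. unc-53, a NAV-type cytoskeletal protein, reached 51.5 (32.7 and 21.3 in the replicates, IDR 0.0496), and unc-76, a FEZ-type adaptor of axonal transport, reached 50.2 (27.3 and 26.1, IDR 0.0209), both in introns. unc-51, an ULK-type kinase needed for axon growth, reached 47.7 (17.7 and 28.9, IDR 0.720). unc-14, which encodes a partner of UNC-51, reached 40.5 in a coding exon (20.3 and 19.9, IDR 0.276). unc-34, the worm's Enabled protein, reached 43.0, with no peak there in replicate 1, 27.3 in replicate 2 and an IDR of 0.806. mig-10, the worm's lamellipodin, reached 38.4, with 15.1 in replicate 1, no peak there in replicate 2 and an IDR of 0.76. The unc-51 peak with a COE site was a weaker one, 1578 bp upstream. It gave 29.5 at rank 11587 for both replicates, 24.6 in replicate 1 and none in replicate 2, and its relaxed site lay 51.5 bp from the summit. MIG-6, a papilin of the extracellular matrix, reached 34.7 (21.7 and 14.4) in an untranslated region, and mig-13, a transmembrane gene of cell migration, reached 23.2.

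Side by side, the medians of the strongest peak were 44.4 in the netrin class, 37.3 in slit, 68.5 in ephrin, 39.9 in semaphorin and plexin, 36.0 in Wnt and 38.1 in adhesion and synapse. The strongest peaks ran from 17.3 to 68.8 within semaphorins and plexins and from 29.1 to 73.4 within adhesion and synapse genes, wider than any difference between these medians. The ephrin median rests on 2 genes, of which only vab-1 was high. Genes are not replicates of a class, so no test was made. The median over the 39 genes with a ranked peak was 40.2, against 32.1 over all genes with a ranked peak. With long windows only, it was 41.8 over 23 members and 37.6 over all such genes.

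**Figure D3:**
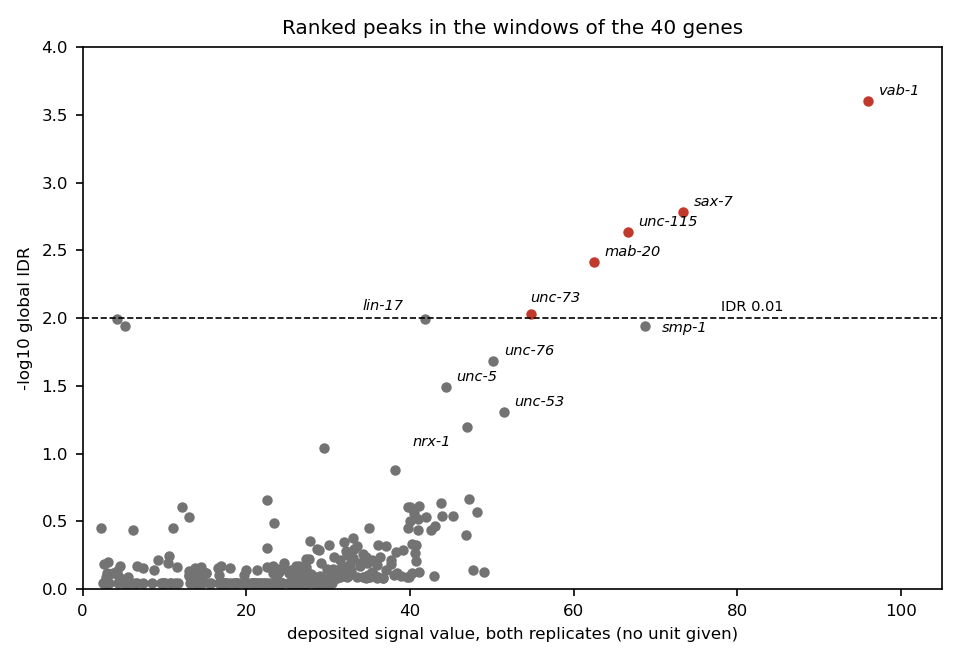
Signal value for both replicates (x axis, no unit given) and −log10 IDR (y axis) of the 302 ranked peaks in the 40 windows, with main peaks in red and the dashed line at an IDR of 0.01. 5 peaks lie above the line, lin-17 and smp-1 lie just below it, each with a weak overlapping peak of nearly the same IDR, and nrx-1 has an IDR of 0.0634.

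Few of the weaker peaks repeated well between the replicates. Of the 302 ranked peaks in the windows, 5 (1.66%) passed an IDR of 0.01, all of them in the main list, and 12 (3.97%) in 10 genes passed 0.05. Over the whole ranked list the shares were 2.57% and 3.80%. The median signal of the 302 peaks was 26.7, against 26.8 for all ranked peaks. The 12 peaks belonged to the 5 main genes and to lin-17, smp-1, unc-76, unc-5 and unc-53.

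The strongest peak of a gene was matched by a peak in both replicates' ranked lists in 26 of the 40 genes. In 8 genes replicate 1 lacked it and in 7 replicate 2 lacked it, egl-20 being counted in both. Over the 26 peaks the replicates' log10 signals had a Pearson r of 0.585 and a Spearman rho of 0.551, given as a description since the peaks were chosen by the combined signal and share their libraries. Without the 5 main genes r was 0.304 over 21 peaks. The ratio of replicate 1 to replicate 2 ran from 0.540 at plx-2 to 1.87 at syg-2, with a median of 1.03. When each replicate was read by itself, its own strongest peak was the same place in 10 of the 40 genes. The replicates thus mostly differed in which weak peak was highest.

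Most summits lay inside the genes. Of the 302 ranked summits, 187 (61.9%) were in introns, 47 (15.6%) upstream, 50 (16.6%) in coding exons, and 18 in untranslated or other exons. Introns make up 60.2% of the bases of the 40 windows and upstream stretches 13.7%, each within 2 percentage points of its share of summits, whereas coding exons make up 21.1% of the bases and held 16.6% of the summits. Over genes with long windows, 59.4% of summits were intronic and introns made up 62.8% of the bases. Of the 39 strongest peaks, 18 were intronic, 13 upstream, 5 in coding exons and 3 in untranslated regions. Of the 40 genes, 15 (37.5%) had a ranked summit within 500 bp of the 5′ end, against 28.1% of all protein-coding genes.

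The density of ranked summits was higher in the 40 windows. It was 5.18 per 10 kb, against 3.08 over all protein-coding windows and 4.12 over 75 other genes of the same pathways, described below. In windows of at least 10000 bp it was 5.29 over the 23 members that have them and 3.50 over all protein-coding genes that have them. By place, values per 10 kb are given for all 40 genes, short windows included, and then for protein-coding genes with long windows. They were 5.32 and 3.32 in introns, 5.88 and 3.86 upstream, and 6.25 and 4.44 in untranslated or other exons. In coding exons, where they were closest, they were 4.06 and 3.70. No test was made. In the list for both replicates the genes departed from this in both directions. vab-1 had 18 summits in 21.0 kb and unc-53 had 22 in 33.4 kb. nrx-1 had 2 in 23.7 kb and lad-2 had 3 in 16.2 kb. In the lists of replicates 1 and 2, vab-1 had 18 and 18 and unc-53 had 19 and 16. There nrx-1 had 7 and 9 and lad-2 had 6 and 7, so their low counts belong to the list for both. Overlapping peaks were counted separately, such as the vab-1 peaks of 29.0 and 10.5, so the summits are not all separate sites.

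**Figure D4:**
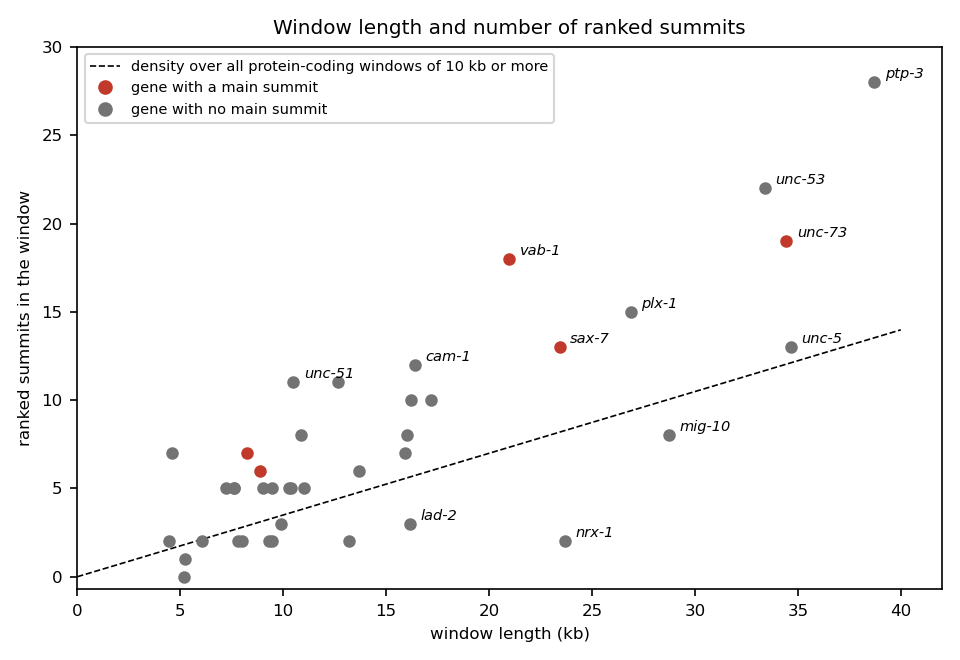
Window length in kb (x axis) and number of summits in the ranked list for both replicates (y axis) of each of the 40 genes. Genes that have a main summit are in red. The dashed line is the density over all protein-coding windows of at least 10000 bp, 3.50 per 10 kb. ptp-3, unc-53, unc-73 and vab-1 lie above it, and nrx-1 and lad-2 lie below it.

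COE sites at summits were rare both in the 40 genes and over all protein-coding genes. nrx-1 alone (1 of 40) had an exact site within 100 bp of a ranked summit, against 0.541% of all protein-coding genes. A relaxed site was found in 4 of 40 (nrx-1, vab-1, nlg-1 and unc-51), against 0.951% of all genes and 4.37% of those with long windows. The nlg-1 window, of 7.80 kb, does not count as long. Of the 302 ranked summits in the 40 windows, 4 (1.32%) had a relaxed site. The share was 0.689% over all protein-coding windows and 0.835% over long windows. Of the 5 main summits, that of vab-1 had a relaxed site and none had an exact site. Of all 631 main summits, 15 (2.38%) had an exact and 21 (3.33%) a relaxed site, and of all 30297 ranked summits 0.376% and 0.729%. Absence of a match says only that these letters are not in the stretch searched.

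Sites without a peak were also present. The 40 windows held 2 exact sites, 1 of them with a ranked summit within 100 bp, and 11 relaxed sites, 4 of them with one. Over all protein-coding windows 30.7% of 306 exact sites and 22.2% of 874 relaxed sites had such a summit. Per 100 kb there were 0.343 exact sites in the 40 windows and 0.375 over all, and 1.89 and 1.07 relaxed sites. Relaxed sites without a ranked summit lay in introns of vab-2, unc-53, rig-6, sax-7, unc-73 and ptp-3. The sax-7 site was 188.5 bp from a summit of 33.9, and the unc-53 site had a summit of 15.5 in replicate 1 only, 7.5 bp away.

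tRNA genes touched 2 of the 40 windows (5%), those of slt-1 and unc-115. The share was 2.06% of all protein-coding genes and 5.03% of those with long windows. Of the 302 ranked summits, 4 (1.32%) lay within 500 bp of a tRNA gene, 3 at unc-115 and 1 at slt-1. Over all protein-coding windows the share of summits was 1.30%. Of all main peaks, 160 (25.4%) lay that close to a tRNA gene, whereas of the 5 main peaks here only that of unc-115 did. The unc-115 value cannot be told apart from signal at the tRNA gene itself. The share of tRNA neighbours in the other 38 genes is 0.

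Other genes of the same pathways, a written list of 76 of which 75 were found in the annotation, gave 5 (6.67%) with a main summit. A ranked summit was present in 64 (85.3%). Over all protein-coding genes these shares were 3.59% and 64.6%. The windows of the 75 genes held 4.12 ranked summits per 10 kb, between 5.18 in the 40 genes and 3.08 over all genes. Their median strongest signal was 37.3, between 40.2 and 32.1. mom-5, a Frizzled receptor, gave 59.6 for both replicates, 36.6 in replicate 1 and 29.3 in replicate 2. The cytoskeletal genes, in the same order of values, were unc-33 (82.2; 47.1 and 31.0), a CRMP protein, unc-44 (72.4; 44.5 and 27.3), an ankyrin, wve-1 (69.5; 39.6 and 31.4), a WAVE protein, and unc-70 (88.9; 47.9 and 41.2), a beta-spectrin. Replicate 1 was above replicate 2 in all 5, and the unc-33 summit lay inside a tRNA gene. No cue of the list, whether netrin-related, ephrin or Wnt, had a main summit. None of the 338 ranked summits in these windows had an exact or a relaxed COE site within 100 bp. In the 40 genes 4 of 302 (1.32%) had a relaxed site, and over all protein-coding windows 0.689%. The counts are small, and the difference was not tested.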

How the data were processed

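Peak lists of 2 biological replicates were read as deposited. The labels name the assembly ce11. The authors deposited a signal value, a score that is a scaled IDR with a cap of 1000, the global IDR on a −log10 scale (ranked lists) and the offset of the summit for each peak. The aligner, the peak caller and their settings are named in none of the sources used here, and the lists hold no read counts, so depth and precision per library are unknown. The lowest scores of the thresholded lists were between 830 and 832, and a score of 830 stands for an IDR of 0.01.

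The members, their classes and the list of other pathway genes were chosen with earlier results of these data known. A summit was assigned to every gene whose window held it. Replicate values are those of the replicate's ranked peak that overlapped by at least 1 bp (the highest where several did). Coordinates are 1-based. Places came from all annotated Ensembl transcripts, with coding exon before untranslated exon before intron. COE sites lay within 100 bp of a summit, and a tRNA neighbour within 500 bp. Full values are given for genes with a main summit, for the strongest gene of each class and for genes with a COE site at a ranked summit; others just outside the IDR limit were named after their values were seen. There is 1 group and no control, so no test was made, and the spread between the replicates is the only error shown. The counting of windows, summits and sites was tested on simulated data. Python 3.11.15, numpy 2.4.6, scipy 1.17.1 and matplotlib 3.10.9 were used.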

Additional observations from a re-analysis of the deposited data

How the results depend on the processing

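The count of 5 genes with a main summit changed most under 3 settings. For this count without 1 replicate, the thresholded list of the other replicate was read. Those lists are shorter, with 353 peaks (replicate 1) and 384 (replicate 2), against 631 in the main list. The count was 2 without replicate 1 (sax-7 and vab-1), 2 without replicate 2 (smp-1 and vab-1), and 1 (vab-1) among main peaks above the median signal. It was 4 in the other thresholded list (smp-1 in, mab-20 and unc-73 out), 4 with 500 bp upstream and 4 without peaks at tRNA genes (unc-115 lost in both), 4 by the nearest 5′ end only (unc-73 lost), and 5 with 5000 bp upstream or any overlap. vab-1 was counted under each of these settings. The 5 other pathway genes became 2 without replicate 1, 2 without replicate 2, 2 by the nearest 5′ end only and 2 among main peaks above the median signal. Genes with a ranked peak fell from 39 to 10 at an IDR of 0.05, and were between 37 and 40 under the other settings tried. Genes with a COE site at a summit went from 1 to 4 with the relaxed pattern, and stayed at 1 within 50 or 250 bp. The median strongest signal of 40.2 was 22.0 without replicate 1 and 23.7 without replicate 2, where the lists have another scale. The causes were not tested. No paired analysis was possible because there is 1 group and no test. Unknown depth, the missing control and 2 replicates limit every value.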
